A study of Bos taurus with 8 samples.

Results

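The smooth muscle contractile and transgelin genes were followed in proliferating muscle cells of beef and dairy bulls. They were MYH11, MYLK, CNN1, CNN2, CALD1, TAGLN, TAGLN2, TAGLN3, LMOD1, and SMTN, and a probe counted as theirs when its gene name, or the symbol of its RefSeq accession, was one of these. Of the 10 genes, 8 had a matched probe, with 1 probe each out of 21475 on the array, and all 8 were tested. CALD1 and SMTN were not analysed here.

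The samples were primary cultures from the semitendinosus muscle of 15-month-old Limousin (LIM), Hereford (HER), and Holstein Friesian (HF) bulls, frozen while proliferating at 80% confluence and with no treatment. Each of 8 two-color oligonucleotide arrays carried RNA of a beef breed culture beside RNA of an HF culture, with LIM in Cy5 against HF in Cy3 on 4 arrays, and HER in Cy3 against HF in Cy5 on the other 4. The cultures were enriched for myoblasts by preplating and kept other cell types, so in such bulk RNA, fewer cells of a type and less RNA per cell cannot be told apart. The LIM arrays shared a slide and the HER arrays another, so that the effects of breed, of slide, and of dye orientation cannot be told apart. The HF bull used on each array is not stated in the sources used here. The paper lists 4 bulls of each breed, and all 8 arrays carried an HF culture, so HF bulls served on more than 1 array. HF cultures may thus be shared by both comparisons. Values are log2 ratios of beef breed over HF, listed from replicate 1 to replicate 4, followed by the mean ± SD of the 4 arrays.

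In smooth muscle, a rise in calcium activates the kinase MYLK through calmodulin, the kinase phosphorylates the regulatory light chain of myosin, and the myosin heavy chain MYH11 then pulls on actin filaments. Calponins and transgelins are related actin-binding proteins, of which CNN1 and TAGLN are widely used markers of differentiated smooth muscle, CNN2 and TAGLN2 occur in many cell types, and TAGLN3 is best known from neurons. LMOD1, a leiomodin, nucleates actin filaments. Several of these genes are also expressed by myofibroblasts, pericytes, and cultured myoblasts.

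A signal well above background was seen in 4 or more of the 16 channels for 17622 probes, which were tested together. Median signals per channel lay between 366 and 690, no spot was saturated, and no spot of the 8 genes was marked as an outlier by the scanner software. The log2 ratios of LIM replicate 4 correlated less with those of the other LIM arrays (Pearson r across probes from 0.34 to 0.56) than these did among themselves (0.62 to 0.78). Among themselves, the HER arrays correlated at 0.33 to 0.65, so values as low as those of LIM replicate 4 also occurred there. On HER replicate 3, the red local background exceeded 500 at 38 spots, but at the spots of the 8 genes the red background was at most 54 on any array. The reference gene GAPDH had a mean log2 ratio of 0.17 ± 0.10 in LIM and 0.28 ± 0.18 in HER (SD, n = 4).

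A probe was called when its Benjamini-Hochberg adjusted limma p was at most 0.05 and its fold change at least 1.3. In LIM against HF, 3 of the 8 genes were called (MYLK, TAGLN3, and CNN2), that is 37.5% of them beside 34.4% of all probes tested. In HER against HF, 5 of 8 were called (MYLK, MYH11, TAGLN3, CNN2, and LMOD1), which is 62.5% beside 24.4%. With normexp background correction and loess, 0 of the 8 were called in HER (limma adjusted p from 0.185 to 0.372), as were 0 of all probes tested. By the methods' t-test with Benjamini-Hochberg adjustment, 0 of 8 were called in each comparison, and the counts over all probes fell as well. All calls of the fit reported here were higher in the beef breed, the direction of 16.1% of the probes in LIM and 10.4% in HER. For the mean of both comparisons, in which a dye effect common to both slides cancels, MYLK, MYH11, TAGLN3, and CNN2 were called, 50% of the genes beside 38.1% of probes in either direction and 17.7% that were higher. The fit treated the ratios of all arrays as independent, so intervals and p-values of this mean do not allow for HF bulls used on several arrays. The median log2 ratio of the 8 genes was 0.54 in LIM, 1.16 in HER, and 0.73 for the mean, beside -0.01, -0.06, and -0.04 over all probes tested.

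**Figure D1:**
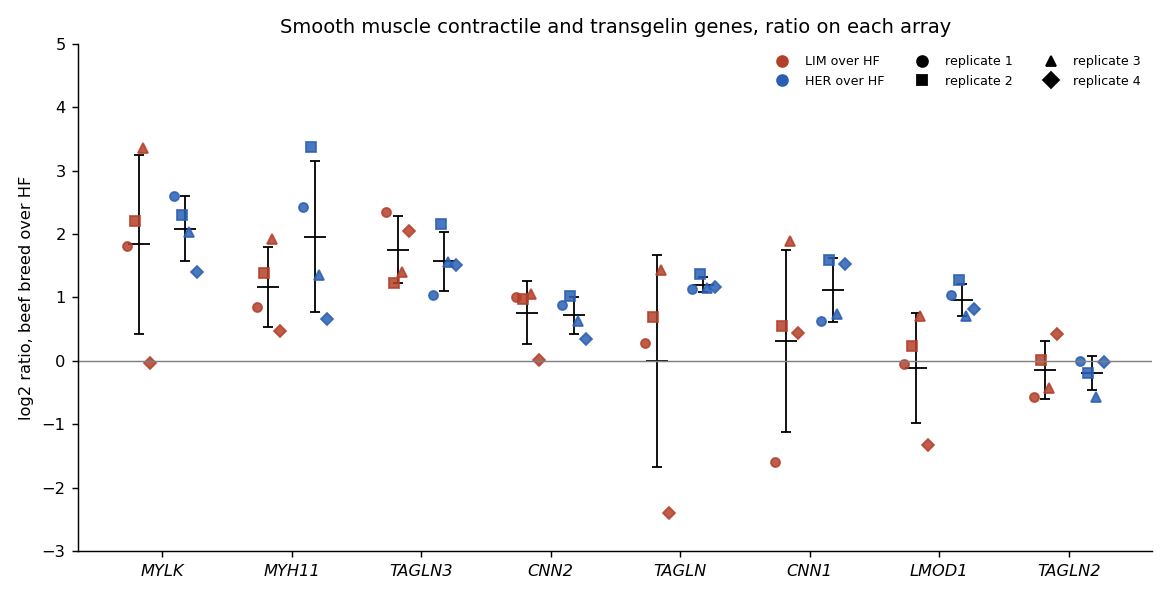
The log2 ratio of beef breed over HF on each of the 8 arrays for the 8 genes, with LIM arrays in red, HER arrays in blue, and 1 symbol per replicate number; the horizontal lines show the mean and the bars the SD of 4 arrays. MYH11, TAGLN3, and CNN2 lie above 0 on every array, while LIM replicate 4 (red diamond) lies at -2.41 for TAGLN and LIM replicate 1 (red circle) at -1.60 for CNN1.

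The motor protein and its kinase had the largest mean log2 ratios of the 8 genes in HER. MYLK, the kinase that switches smooth muscle myosin on, had log2 ratios of 1.81, 2.21, 3.36, and -0.033 in LIM and of 2.60, 2.30, 2.04, and 1.40 in HER. The HER arrays and LIM replicates 1 to 3 were therefore all above 0, and LIM replicate 4 showed about equal signals in both channels (5091 in LIM and 5209 in HF). MYLK was 3.58-fold higher in LIM (log2 1.84 ± 1.41, limma adjusted p = 0.0153) and 4.24-fold higher in HER (log2 2.09 ± 0.51, limma adjusted p = 0.0153). For the mean of both, the log2 difference was 1.96 (95% interval from 1.22 to 2.70, limma adjusted p = 0.00169). Without LIM replicate 4, it was 2.27. The call in LIM was lost without LIM replicate 2 or 3, and the call in HER without HER replicate 1 or 2.

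MYH11, the smooth muscle myosin heavy chain, had log2 ratios of 0.85, 1.39, 1.92, and 0.48 in LIM and of 2.43, 3.37, 1.36, and 0.66 in HER. The ratio was above 0 on all 8 arrays, as for TAGLN3 and CNN2, and for 11.7% of all probes tested. The 2 highest values came from HER replicates 1 and 2 (beef signals of 418 and 842), while the beef signal of the other 6 arrays lay between 66.1 and 142. HF signals stayed between 25.1 and 81.3, and on LIM replicate 2 the HF signal was not well above background, so the LIM mean rests on 3 arrays with a measured HF level and 1 without. MYH11 was 3.88-fold higher in HER (log2 1.96 ± 1.19, limma adjusted p = 0.0138), and its log2 difference in LIM was 1.16 ± 0.63 (limma adjusted p = 0.0571). The mean of both was 1.56 (95% interval from 0.89 to 2.22, limma adjusted p = 0.00305). Such dim signals depend on the background step: with normexp correction and loess the mean was 0.38 (limma adjusted p = 0.0495), and the 2 spots of the probe differed by up to 1.80 in log2 ratio on a single array. The HER call was lost without HER replicate 1 or 2.

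The calponins bind actin filaments. CNN2, the calponin found in many non-muscle cells, had log2 ratios of 1.01, 0.97, 1.06, and 0.0092 in LIM and of 0.87, 1.02, 0.62, and 0.35 in HER. The first 3 LIM replicates were nearly equal, and replicate 4 was the lowest in both comparisons. On both of these arrays the HF channel was the brightest of its comparison, with an HF signal of 33093 on LIM replicate 4 against 18061 to 18525 on the other LIM arrays, and of 21037 on HER replicate 4 against 12883 to 18074 on the other HER arrays. The LIM signal itself differed little, from 33311 to 38501 over the 4 arrays. CNN2 was 1.70-fold higher in LIM (log2 0.76 ± 0.50, limma adjusted p = 0.017) and 1.64-fold higher in HER (log2 0.72 ± 0.30, limma adjusted p = 0.0305), with a mean of 0.74 (95% interval from 0.42 to 1.05, limma adjusted p = 0.00295). The LIM call was lost when any of LIM replicates 1 to 3 was left out, and the HER call when any of HER replicates 1 to 3 was.

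CNN1, the calponin of differentiated smooth muscle, varied far more between arrays. Its log2 ratios were -1.60, 0.55, 1.89, and 0.44 in LIM and 0.63, 1.59, 0.74, and 1.53 in HER. On LIM replicate 1, CNN1 was dimmer in LIM (8857) than in HF (26793), the reverse of the other 7 arrays. The SD of 1.44 over the LIM arrays was larger than that of 96.9% of the probes tested. The log2 difference was 0.32 ± 1.44 in LIM (limma adjusted p = 0.616), 1.12 ± 0.51 in HER (limma adjusted p = 0.107), and 0.72 for the mean (95% interval from -0.03 to 1.47, limma adjusted p = 0.101), so CNN1 passed the test in no comparison. Without LIM replicate 1, the mean was 1.04 and passed the test (limma adjusted p = 0.00728), as did HER against HF. That array holds the lowest CNN1 value, and leaving it out narrows the spread that both comparisons share. This fit is therefore no independent test of CNN1.

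**Figure D2:**
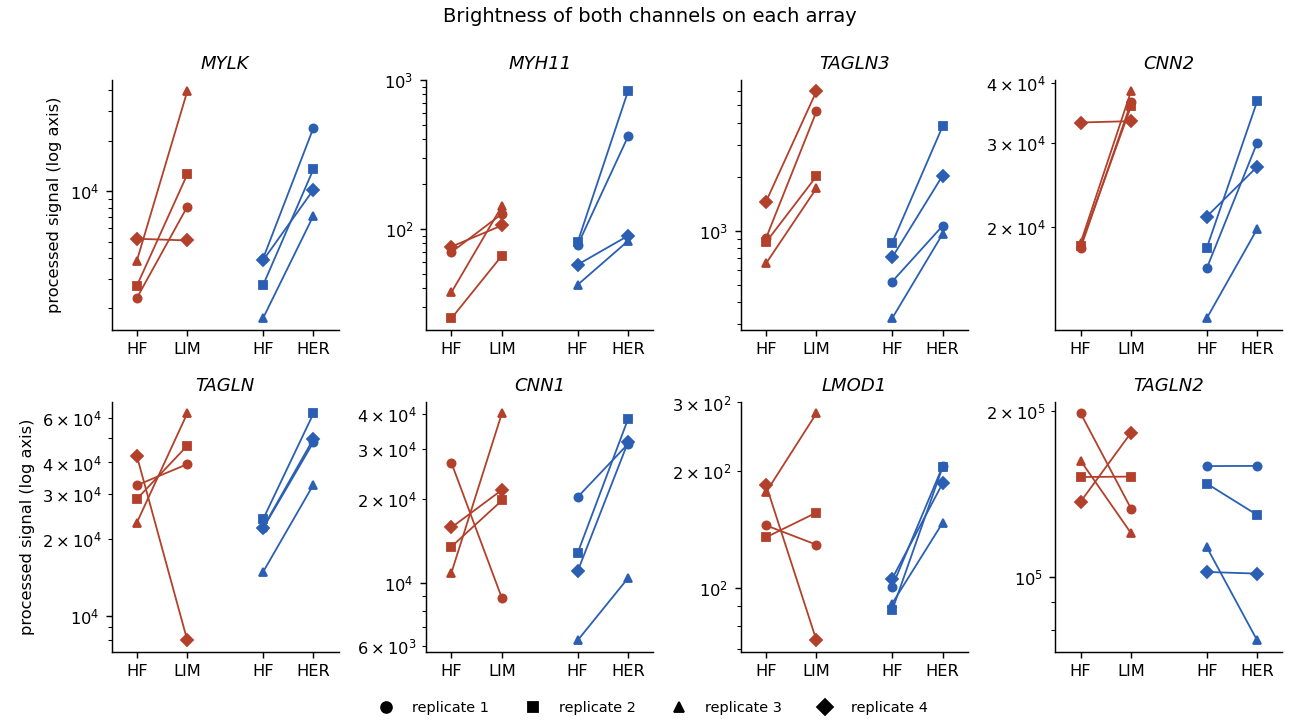
The processed signal of both channels on each array for the 8 genes, on log axes that differ between panels, with lines joining the HF and the beef channel of an array (LIM in red, HER in blue, 1 symbol per replicate number). For CNN2, the flat line of LIM replicate 4 starts from a bright HF channel at 33093, whereas for TAGLN the line of LIM replicate 4 falls from 42445 in HF to 7999 in LIM.

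The transgelins gave 3 different patterns. TAGLN3, the transgelin best known from neurons, had log2 ratios of 2.35, 1.22, 1.40, and 2.05 in LIM and of 1.03, 2.16, 1.56, and 1.52 in HER, so all 8 arrays lay above 1. It was 3.38-fold higher in LIM (log2 1.75 ± 0.53, limma adjusted p = 0.00112) and 2.97-fold higher in HER (log2 1.57 ± 0.46, limma adjusted p = 0.00452), and the mean of both was 1.66 (95% interval from 1.295 to 2.031, limma adjusted p = 0.000246). The HF signal ranged from 324 to 1453 and the beef signal from 960 to 6016, and on each array the beef channel was at least 2.05 times as bright as HF. Among the 8 genes, TAGLN3 alone was called in both comparisons whichever single array was left out, but with normexp correction and loess its log2 difference in HER was 0.86 and not called (limma adjusted p = 0.185).

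TAGLN, the transgelin of smooth muscle, had log2 ratios of 0.28, 0.70, 1.43, and -2.41 in LIM and of 1.13, 1.38, 1.14, and 1.16 in HER. The HER arrays lay close together, while on LIM replicate 4 the signal was 7999 in LIM against 42445 in HF. Other LIM signals ran from 39406 to 62456, and the HF signals of the other 7 arrays from 14844 to 32553, so both channels of LIM replicate 4 lay outside the range of the remaining arrays. The SD of TAGLN was 1.67 in LIM, above that of 98.2% of probes, and 0.12 in HER, above that of 9.08%. With all arrays, TAGLN passed the test in no comparison: the log2 difference was -0.0022 in LIM (limma adjusted p = 0.998), 1.20 in HER (limma adjusted p = 0.113), and 0.60 for the mean (95% interval from -0.22 to 1.42, limma adjusted p = 0.197). Both comparisons share 1 estimate of the spread in the fit, so the wide LIM spread also entered the HER test (standard error 0.51 in each). The HER result for TAGLN thus does not rest on the HER arrays alone. Without LIM replicate 4, TAGLN was called in LIM (log2 0.80, limma adjusted p = 0.0181), in HER (log2 1.20, limma adjusted p = 0.00453), and for the mean (log2 1.00, limma adjusted p = 0.000992). That array holds the lowest TAGLN value, and leaving it out narrows the shared spread, so these fits are no independent test of TAGLN.

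TAGLN2, the broadly expressed transgelin, had log2 ratios of -0.57, 0.0098, -0.43, and 0.42 in LIM and of 0.00034, -0.19, -0.56, and -0.011 in HER. The arrays lay on both sides of 0, with signals between 76524 and 198153 in every channel. The log2 difference was -0.14 ± 0.45 in LIM (limma adjusted p = 0.552) and -0.19 ± 0.26 in HER (limma adjusted p = 0.451). The interval of the mean, from -0.46 to 0.12, excluded a fold change of 1.3 in favor of the beef breeds but not one in favor of HF.

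LMOD1, the leiomodin of smooth muscle, had log2 ratios of -0.06, 0.23, 0.71, and -1.33 in LIM and of 1.04, 1.27, 0.71, and 0.82 in HER. The highest LIM value, on replicate 3, came close to the lowest HER value, also on replicate 3, and the other LIM arrays lay below all HER arrays. LMOD1 was dim, with signals from 73.5 to 282. It was 1.95-fold higher in HER (log2 0.96 ± 0.25, limma adjusted p = 0.0401), with a log2 difference of -0.11 ± 0.87 in LIM (limma adjusted p = 0.784) and 0.42 for the mean (95% interval from -0.03 to 0.88, limma adjusted p = 0.112). The HER call was lost in 6 of 8 fits without 1 array, namely those without LIM replicate 1 or 2 or any HER replicate, and with normexp correction and loess it had a log2 difference of 0.29 (limma adjusted p = 0.335). Without LIM replicate 4, the mean was 0.63 (limma adjusted p = 0.00336). That array holds the lowest LMOD1 value, so this fit is no independent test of LMOD1.

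The difference between both comparisons (LIM minus HER) was tested for each gene, and limma called 0 of 8, beside 0.233% of all probes. At an unadjusted p of 0.05, which 14.1% of probes passed, 1 gene passed, LMOD1, with a log2 difference of -1.07 (95% interval from -1.99 to -0.15, limma unadjusted p = 0.0271, adjusted p = 0.264), and the methods' t-test passed 0 of 8 at the same unadjusted threshold. The intervals of the other 7 genes spanned 0, the widest for TAGLN, from -2.85 to 0.44, and the narrowest for TAGLN2, from -0.53 to 0.62. Genes called in 1 comparison alone, MYH11 and LMOD1, are thus not shown to differ between LIM and HER.

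**Figure D3:**
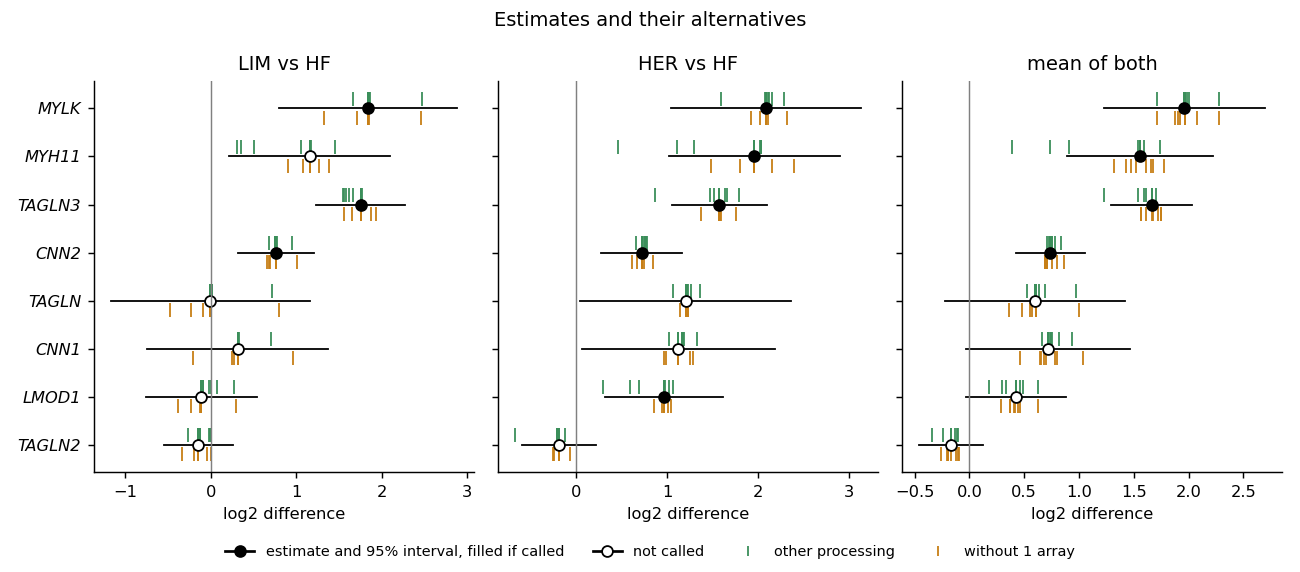
Log2 differences of the 8 genes in LIM against HF, HER against HF, and the mean of both, as points with 95% intervals, filled where called; green marks give the value under other processing of the arrays and orange marks the value without 1 array. In the panel of the mean, the 4 filled genes stay above 0 under every mark, and the mark of TAGLN farthest to the right, at 1.00, is the value without LIM replicate 4.

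Leaving out LIM replicate 4 raised the number of called genes from 3 to 4 in LIM, from 5 to 6 in HER, and from 4 to 6 for the mean, with TAGLN gained each time and LMOD1 also gained for the mean. The number of all probes called also differed between fits without 1 array, and these gains were not set against it. Markers of cell types were also compared between this array and the other LIM arrays. The share of all probes for which this array lay outside the range of those arrays was not computed. The counts that follow therefore have no background beside them. Of the 4 tested markers of mural cells (pericytes and vascular smooth muscle), 2 lay below the range of the other LIM arrays there, with ACTA2 at -0.21 against 1.37 to 2.35 and ANPEP at 1.38 against 1.90 to 2.13, and 2 lay within it, with MCAM at 3.15. The mural sum of signals, of which ACTA2 made up 97.1% in the LIM channel of this array, had a log2 ratio of -0.17 against 1.37 to 2.35. Of 10 fibroblast markers, 7 lay below the range, 1 within, and 2 above, and their sum was 0.68 against 2.07 to 3.43. Of 7 satellite cell and myoblast markers, 4 lay below and 3 within, with a sum of 0.98 against 1.46 to 1.99. Of 8 markers of differentiating muscle cells, 6 lay within the range, 1 below, and 1 above, with a sum of 3.68 against 2.47 to 4.23. Of 5 endothelial markers, 4 lay above and 1 below, with a sum of 3.27 against -0.63 to 2.81, and both tested leukocyte markers lay above.

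Markers of several cell types were also called for the mean of both comparisons, and their counts stand beside 17.7% of all probes called higher and 38.1% called in either direction. Of the 4 tested mural markers, 3 were higher in the beef breeds and 0 lower (MCAM, log2 1.56; ANPEP, log2 1.53; ACTA2, log2 1.21), with 2 higher without LIM replicate 4. MCAM did not pass in HER (log2 0.67, limma adjusted p = 0.54) and was at -2.45 on HER replicate 3, and RGS5, a defining pericyte gene, was well above background in fewer than 4 channels and was not tested. Their summed signal ranged from 191497 to 392369 in the beef channels and from 68280 to 215688 in the HF channels. Of 10 fibroblast markers, 7 were higher, among them COL3A1, COL1A2, and COL1A1 (log2 2.69, 2.55, and 2.22), and 2 were lower, PDGFRA (log2 -1.42) and TCF21 (log2 -1.13). The 7 include DCN, whose other probe had -0.40 in LIM and -0.29 in HER, and 6 were higher without it. Their summed signal ranged from 280195 to 789824 in the beef channels and from 55642 to 228519 in HF. Of 7 tested satellite cell and myoblast markers, 5 were higher and 0 lower, with DES at 2.69, CDH15 at 2.38, and MYF5 at 1.90. All 8 tested markers of differentiating muscle cells were higher, led by ACTA1 (log2 4.70), MYH3 (log2 4.18), and MYL1 (log2 3.33). Endothelial markers gave 0 calls in 5, with 0 also without LIM replicate 4, and of 2 tested leukocyte markers only CD68 was higher (log2 0.81), a call lost with outlying backgrounds replaced. The part of the cell makeup in the calls of the 8 genes was not tested.

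Of 29 contraction partners, 14 were tested, and for the mean of both comparisons 5 were higher and 1 lower, with 4 higher and 1 lower in LIM and the same counts in HER. These calls were 42.9% of the partners for the mean beside 38.1% of all probes, and 35.7% in LIM beside 34.4% and in HER beside 24.4%. The median of the 14 was 0.26. TPM1, a tropomyosin that lies along the actin filament, had log2 ratios of 3.15, 1.80, 2.24, and 1.95 in LIM and of 2.21, 2.74, 1.61, and 1.97 in HER. All 8 arrays lay above 1.5, and the mean was 2.21 (limma adjusted p = 0.000146). ACTA2, the smooth muscle actin, had log2 ratios of 1.37, 1.56, 2.35, and -0.21 in LIM and of 1.65, 1.24, 1.05, and 0.68 in HER, with LIM replicate 4 again the only array below 0 and a mean of 1.21 (limma adjusted p = 0.00481). MYL9, the regulatory light chain that MYLK phosphorylates, was above 0 on all 8 arrays, from 0.33 to 1.75, with a mean of 1.09 (limma adjusted p = 0.000965). CSRP2, a LIM-domain protein of smooth muscle, was the 1 partner that was lower, with log2 ratios of -2.06, -1.74, -1.46, and -0.23 in LIM and of -1.17, -1.23, -1.55, and -0.96 in HER, and a mean of -1.297 (limma adjusted p = 0.000916). MYL6 and ACTG2 completed the calls, at 0.91 and 1.09. The other 8 partners, among them ROCK2 (log2 0.17), VCL (log2 -0.03), and TPM4 (log2 0.24), did not pass.

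Of 24 regulators of smooth muscle genes, 12 were tested, and 5 were higher and 2 lower for the mean of both comparisons, with a median of 0.25. In LIM, 6 were higher and 1 lower, and in HER, 2 were higher and 2 lower. These calls were 58.3% of the regulators for the mean beside 38.1% of all probes, 58.3% in LIM beside 34.4%, and 33.3% in HER beside 24.4%. The counts include FOXO4, whose probes disagreed, and without it 4 were higher for the mean, 5 in LIM, and 1 in HER. The regulators not tested had no matched probe, among them GATA6 and SMAD7, which the paper reports as lower in both beef breeds. The balance of higher and lower calls thus holds only for the regulators tested. TGFB2, a growth factor that induces smooth muscle genes, was above 0 on all 8 arrays, from 0.54 to 2.22, with a mean of 1.31 (limma adjusted p = 0.00106). The other ligands of the family went the other way, TGFB3 with a mean of -1.06 (limma adjusted p = 0.00202) and TGFB1 with -0.63 (limma adjusted p = 0.00564), and both were below 0 on all 8 arrays. HEYL, a Notch target gene that encodes a repressor, was 6.48-fold higher in LIM (log2 2.70 ± 1.15), with ratios of 1.11, 2.82, 3.02, and 3.84. In HER it scattered over 2.35, 0.24, -1.64, and 1.91, and did not pass (limma adjusted p = 0.437). The mean of both for HEYL was 1.71 (limma adjusted p = 0.0155). LIM minus HER was not called for it (log2 1.98, limma adjusted p = 0.365), so HEYL is not shown to differ between LIM and HER. FOXO4, a forkhead factor, had a mean of 1.16 on the brighter of its 2 probes, while the other probe had -1.29 in LIM and -0.23 in HER, so no direction is given for the gene.

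**Figure D4:**
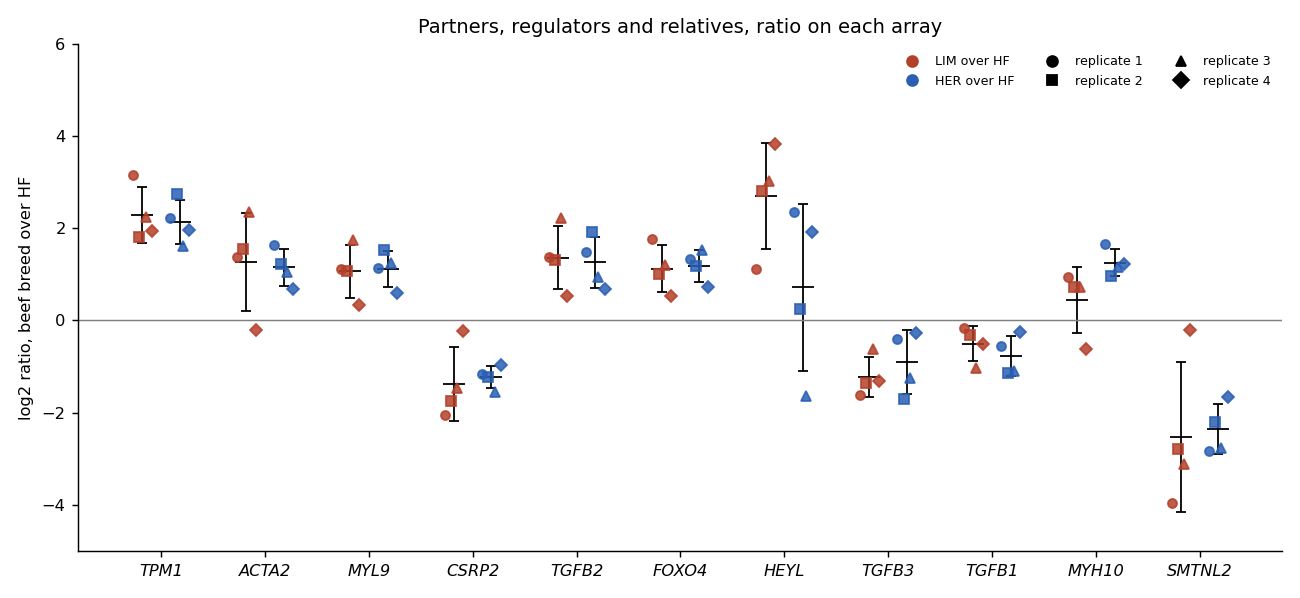
The log2 ratio of beef breed over HF on each of the 8 arrays for 4 contraction partners (TPM1, ACTA2, MYL9, CSRP2), 5 regulators (TGFB2, FOXO4, HEYL, TGFB3, TGFB1), and 2 relatives (MYH10, SMTNL2), with LIM in red, HER in blue, 1 symbol per replicate number, and the mean and SD of 4 arrays. TPM1 lies between 1.61 and 3.15 on all arrays. In the LIM group, LIM replicate 4 lies nearest to 0 or beyond it for ACTA2, MYL9, CSRP2, TGFB2, FOXO4, MYH10, and SMTNL2.

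Of 18 relatives of the 8 genes, 7 were tested, with 2 higher and 1 lower for the mean, or 42.9% beside 38.1% of all probes, and a median of 0.06. SMTNL2, a smoothelin-like protein, fell the most, with log2 ratios of -3.97, -2.80, -3.12, and -0.20 in LIM and of -2.82, -2.20, -2.76, and -1.65 in HER. It was 5.43-fold lower in the beef breeds (limma adjusted p = 0.0011 for the mean). LMOD2, the leiomodin of striated muscle, was well above background in the beef channel of all 8 arrays and in the HF channel of none. Set against a floor for HF, it was 7.99-fold higher in LIM and 5.02-fold higher in HER. The floor was, per array, the larger of the HF signal and the lowest signal among probes well above background. HF signals of 25.1 for MYH11 on LIM replicate 2 and of 16 for CD68 on HER replicate 2 were not well above background either. These folds are therefore not firm lower bounds. Of the non-muscle myosins, MYH10 was 2.38-fold higher in HER (limma adjusted p = 0.011) with a log2 difference of 0.44 in LIM (limma adjusted p = 0.19). LIM minus HER was not called for MYH10 (log2 -0.81, limma adjusted p = 0.334). MYH9 had a mean of 0.02 (limma adjusted p = 0.881).

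Of the 8 genes, MYLK, TAGLN3, and CNN2 were called higher in both comparisons, 3 of 8, as were 7.55% of all probes. For each, the named genes whose log2 ratios followed it most closely over the 8 arrays were sought among 7149 probes, as a description, since all arrays share the contrast with HF. The highest r of so many probes over 8 arrays is large even among unrelated probes, and how large was not computed. REEP3, HCN3, and ACTA2 followed MYLK (Pearson r of 0.99, 0.99, and 0.97). PRRG1, PTTG1IP, and ADAMTS2 followed CNN2 (0.97 each), and BPIFB1, VNN1, and CIPC followed TAGLN3 (0.93, 0.90, and 0.90). Genes alike in pattern differed in size or direction. REEP3 had log2 differences of 0.38 in LIM and 0.42 in HER beside 1.84 and 2.09 for MYLK. CIPC was below 0, at -0.16 in LIM and -0.26 in HER, beside 1.75 and 1.57 for TAGLN3.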

How the data were processed

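Array values of 8 samples were analysed, 4 LIM and 4 HER, each against HF; breed, dye, and replicate number came from the labels. The authors deposited the output of Feature Extraction 10.7.3.1 for each array, with a log10 ratio of red over green and a processed intensity of each channel after the software's background subtraction and dye normalization, and the median intensity of each spot and its local background. The deposited series table holds the same log10 ratio (largest difference 0). The array design was made on Btau 3.1. Log ratios were turned to log2 beef breed over HF, with the sign reversed on HER arrays, and the 2 spots of a probe were averaged without control and outlier spots. Channel brightness is the processed intensity as deposited; levels of different genes are not compared by it, while the sum over a marker list follows its brightest probes.

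Probes whose signal was well above background in 4 or more channels were fitted with limma 3.58.1 in R 4.3.3 (lmFit and eBayes), both comparisons in 1 model, so they share 1 estimate of the spread. The threshold on fold change is that of the study's methods, whereas the moderated test in 1 model and the Benjamini-Hochberg adjustment replace the methods' t-test in each comparison. The number of arrays limits the precision.

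Named are all members, the up to 3 highest and 3 lowest called genes of each list, the 3 most similar genes of members called in both comparisons, and GAPDH, MYOG, and DES; MYH9, ROCK2, VCL, TPM4, MYL6, and ACTG2 were added after their values were seen. MYOG had a mean log2 difference of 2.05. The members and lists were chosen with earlier results of these data known. Names came from a RefSeq table of the ARS-UCD2.0 assembly, which matched 7793 of 20693 accessions, and the brightest probe stood for a gene. Probes of 1 gene disagreed in sign in at least 1 comparison for FOXO4, DCN, LPP, TMOD3, ERG, and GAPDH. Coordinates and sequences are left out because that assembly is not the one of the array design. Alternatives covered background correction, centring, scaling, the probe filter, spot flags, array weights, the methods' t-test, thresholds, a replicate block, and leave-one-out fits over the arrays.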

Additional observations from a re-analysis of the deposited data

Results flagged for a closer look

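Among 48 groups of 4 arrays searched (log2 ratio and both channels of the 8 genes in each comparison), 4 held 1 array far from the other 3, and chance alone marks about 1 in 20 such groups. In LIM, CNN2 had a log2 ratio of 0.0092 on replicate 4 against 0.97 to 1.06 on the others, and the log2 HF signal of CNN2 on that array was 15.01 against 14.14 to 14.18. In HER, TAGLN had a log2 ratio of 1.38 on replicate 2 against 1.13 to 1.16, and the log2 HER signal of CNN1 was 13.35 on replicate 3 against 14.93 to 15.23. After adjustment, limma called a difference between LIM and HER for 0 of the 8 genes, and at an unadjusted p of 0.05 for 1, LMOD1.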

How the results depend on the processing

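For the mean of both comparisons, MYLK, MYH11, TAGLN3, and CNN2 were called in 11 of 11 other settings and in 8 of 8 fits without 1 array. The methods' t-test with Benjamini-Hochberg adjustment, which called 0 of the 8 genes in LIM or HER, is not among those 11 settings. With normexp and loess, MYH11 passed narrowly, at log2 0.385 beside a threshold of 0.379 (limma adjusted p = 0.0495). Over all values of single genes, 662 kept direction and call, 34 lost the call, 20 gained it, and 28 changed sign; the causes were not tested. With normexp and loess, 0 probes and 0 of the 8 genes were called in HER (3289 probes for the mean, 0 for LIM minus HER), whereas with outlying backgrounds replaced by the array median 5 of the 8 genes and 2979 probes were called in HER. By the methods' t-test with Benjamini-Hochberg adjustment, 1003 probes and 0 of the 8 genes were called in LIM, and 2 probes and 0 genes in HER. With array weights (0.30 for LIM replicate 4), 7 of the 8 genes were called for the mean, a count not set against the share of all probes. The 41 probes called for LIM minus HER became 1 with backgrounds replaced, 1 without background correction, 15 with arrays scaled, 76 without a filter, 1 with 8 channels required, 224 with array weights, 2133 by the methods' t-test unadjusted, and 2480 by limma unadjusted. Without 1 array, 3796 to 7010 probes were called in LIM (6056 with all), 1527 to 5437 in HER (4302), 5855 to 7458 for the mean (6722), and 1 to 14 for LIM minus HER; of the 8 genes, 1 to 4 were called in LIM, 1 to 6 in HER, and 4 to 6 for the mean, with the lowest counts in LIM without LIM replicate 2 or 3 and in HER without HER replicate 1 or 2. The replicate block gave 0 probes for LIM minus HER, 6357 in LIM, and 4304 in HER, with 4 and 5 of the 8 genes; the numbers did not pair the arrays, since deviations of same-numbered arrays correlated at -0.24, 0.13, 0.30, and 0.54, and 2 of 4 LIM arrays matched their own number best. No value that changed sign had been called with all arrays. TAGLN in LIM was 0.0019 with normexp, 0.014 centred, 0.021 scaled, 0.72 with array weights, and -0.48 to 0.80 without 1 array, the highest without LIM replicate 4. LMOD1 in LIM was 0.072 with normexp, 0.0035 with backgrounds replaced, 0.28 with array weights, -0.39 to 0.29 without 1 array, and 0.077 from the first of its spots alone, an alternative chosen after seeing the data. CNN1 in LIM was -0.20 to 0.96 without 1 array. For LIM minus HER, MYLK was 0.25 with normexp, 0.40 with array weights, and -0.75 to 0.38 without 1 array. CNN2 was -0.0025 with backgrounds replaced, -0.0016 without correction, -0.075 scaled, and -0.076 to 0.30 without 1 array. TAGLN3 was -0.24 scaled, -0.085 with array weights, and -0.014 to 0.38 without 1 array. TAGLN2 was -0.045 with array weights and -0.14 to 0.19 without 1 array. Averaging over the probes of a gene was not applicable, since each of the 8 genes had 1 probe. Signal over background limits MYH11 and LMOD1 most.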
